A study of Sus scrofa with 6 samples.

Results

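The subunits of the oxidative phosphorylation system were followed at the RNA level in the cervical spinal cord of 6 male pigs, each 140 days old. The members are 75 of the 28965 genes listed in each library's table. They were taken by gene name: 62 nuclear genes whose names match the subunit families of complexes I to V, and the 13 protein-coding mRNAs of mitochondrial DNA. By complex, the nuclear members number 29 for complex I, 3 for complex II, 6 for complex III, 12 for complex IV and 12 for complex V, while the mitochondrial mRNAs number 7, 0, 1, 3 and 2. The assignment to complexes is textbook knowledge, and NDUFA4 and COX7A2L are counted with complex IV and the inhibitor ATP5IF1 with complex V.

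The study set 3 animals carrying a UBE3A maternal deletion against 3 wild-type animals, with 1 library per animal. The product of UBE3A is a ubiquitin ligase, made in neurons mainly from the maternal allele, whose loss causes Angelman syndrome in people. The comparison addresses the RNA content of the cord without that maternal copy. The sources used here do not say how the allele was made, which level of the cord was sampled or which litters the animals came from. Sample titles put the word brain before the cord, and the source name gives cervical spinal cord alone.

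Complexes I to IV pass electrons from NADH and succinate to oxygen and pump protons across the inner mitochondrial membrane, except complex II, which moves electrons without pumping. Complex V, the ATP synthase, uses the proton gradient to make ATP. Each complex except complex II is built from subunits of both genomes, and in the cord large motor neurons and their long axons are known for a high demand for ATP. Mitochondrial DNA is transcribed as long precursors from each strand, which are cut into mRNAs, so levels of the single mRNAs depend on processing and stability as well as on transcription.

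Libraries held 17181003 to 22492366 exon reads, and 3 reads, taken as the floor of detection, correspond to 0.133 to 0.175 CPM, the count of a gene scaled to the library total. UBE3A itself (ENSSSCG00000004832) stood at 21.4, 27.1 and 21.4 CPM in deletion replicates 1 to 3, against 57.0, 65.5 and 60.6 CPM in wild-type replicates 1 to 3. Its log2 fold change was -1.39 (SE 0.13; edgeR quasi-likelihood test, Benjamini-Hochberg adjusted p = 0.0253), and the groups did not overlap (exact two-sided permutation p = 0.1, the smallest that 3 animals against 3 allow). Across the 14566 genes tested, 149 passed an adjusted p of 0.05, which is 1.02% of them, 0.178% being higher and 0.844% lower in the deletion animals. Wild-type replicate 3 stood apart from the other libraries: its mitochondrial mRNAs took 5.88% of exon reads where the other 5 libraries had 9.01 to 12.4%, and HOXC8, a gene of cord position, stood at 1.97 CPM there where the other libraries had 23.2 to 32.1 CPM. Summaries and main values are therefore also given without that library. Animal IDs begin with 14 in replicate 1 of each genotype and with 15 in the others. What the prefix means is not stated, and values within each prefix are given as for a possible batch.

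No subunit RNA passed the threshold in either genome, while most nuclear subunits had slightly higher levels in the deletion animals when all 6 libraries were used. Of the 62 nuclear members, 61 had enough reads to be tested. The one left out was COX6B2, the testis form of a complex IV subunit, with 2, 0 and 3 reads in the deletion libraries and 1, 2 and 3 reads in the wild-type libraries. Log2 fold changes of deletion over wild type were positive for 57 of the 61 nuclear members (93.4%), where 56.7% of all tested genes were positive. Under total-count scaling 48 of the 61 were positive, where 43.0% of all tested genes were. In the fit used here the members ran from -0.24 to 0.54 with a median of 0.17, a difference of 12.6%. The median of all tested genes was 0.05. The smallest adjusted p was 0.117 (edgeR quasi-likelihood test, Benjamini-Hochberg), and 16 of the 61, all of them positive, had an unadjusted p under 0.05, a result that 11.1% of all genes gave in that direction and 9.09% in the other. That count was 3 under total-count scaling, 7 under relative log expression and under upper-quartile scaling, and 4 without wild-type replicate 3. It was 10 with DESeq2, 11 with voom and with the ID prefix as a block, and 15 with no filter. Over all alternatives it ran from 1 with prefix 15 alone to 19 without wild-type replicate 1. The shares of all genes with such a p in those fits are not given here. DESeq2 and limma voom also called none of the 61, where DESeq2 called 4.13% of all genes higher and 5.59% lower, and voom 0.645% higher and 2.36% lower. In 15 of the 61 (24.6%) every deletion library lay above every wild-type library, which 15.2% of all tested genes did, and none lay wholly below, as 11.2% of all genes did.

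The excess of positive values was not shared evenly by the wild-type animals. Wild-type replicate 3 had the lowest level of the 6 libraries for 51 of the 61 nuclear members, whereas it was the lowest for 20.6% of all tested genes. Without it, 34 of the 61 fold changes were positive and their median was 0.03, where 51.9% of all tested genes were positive with a median of 0.02. Of the 61, 16 (26.2%) then lay above both remaining wild-type libraries and 1 lay below, while 27.8% of all tested genes lay above and 18.4% below. None of the 61 passed the threshold in that fit, which called 0.809% of all genes higher and 4.31% lower. Without wild-type replicate 1, the highest of the wild-type libraries for these genes, 60 of the 61 were positive and the median was 0.30. Of all tested genes 56.0% were then positive, with a median of 0.05. Within the ID prefixes the same split showed. Wild-type replicate 1 has prefix 14 and wild-type replicate 3 has prefix 15, so this is not a separate observation. Between the prefix 14 animals, 1 of each genotype, 28 of the 61 nuclear members were higher in the deletion animal, with a median fold of 0.995. Between the prefix 15 animals, 2 of each genotype, 60 of the 61 were higher, with a median fold of 1.21. Among all tested genes these shares were 55.5% and 55.6%. Why wild-type replicate 3 was low was not tested.

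**Figure D1:**
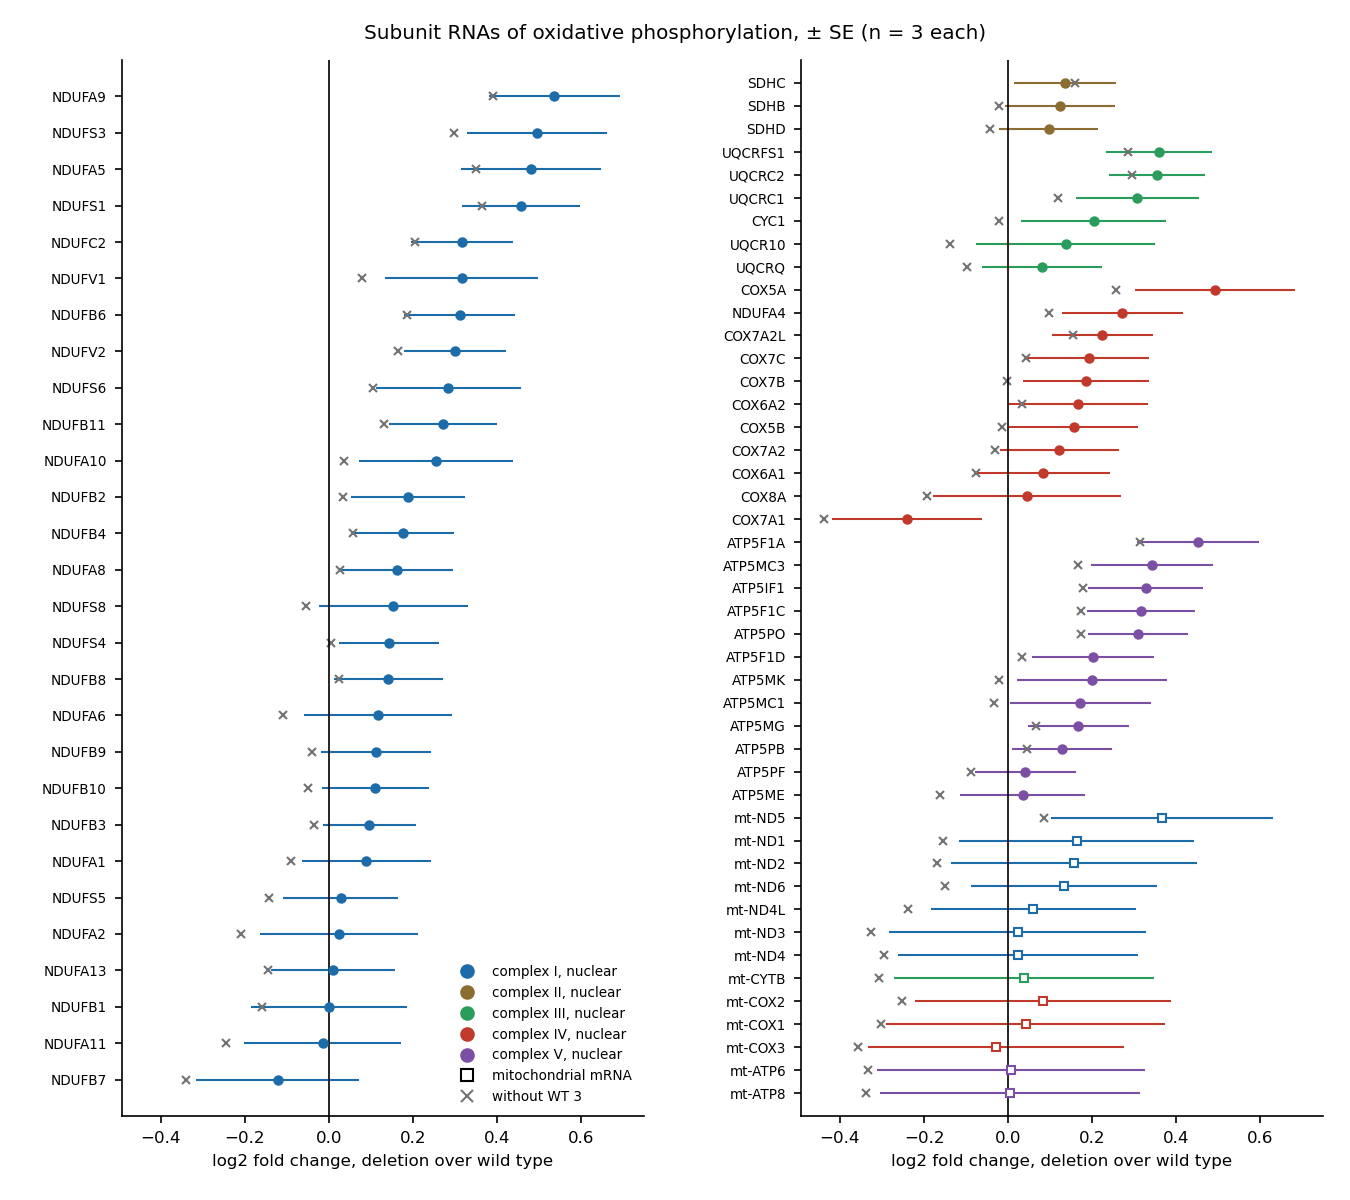
Log2 fold change of deletion over wild type for tested members, nuclear complex I on the left, the other nuclear complexes and the 13 mitochondrial mRNAs on the right; bars are ± SE (n = 3 each) and crosses are the values without wild-type replicate 3. Nuclear members spread from -0.24 to 0.54, and nearly all crosses sit to the left of their points.

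Complex I accepts electrons from NADH, and its nuclear members showed the highest single values. All 6 of its measured nuclear core subunits, which bind the flavin and the iron-sulfur clusters or line the quinone site, were positive, with a median log2 fold change of 0.31, and 4 of them had no overlap between the groups. The 23 accessory subunits had a median of 0.14, with 20 positive and 3 without overlap. In all of these cases the deletion libraries were the higher ones, which held for 15.2% of all tested genes. The accessory share was below that of all tested genes, and the core share was above it. The difference between core and accessory subunits was not tested. Without wild-type replicate 3 the medians were 0.23 for the core subunits, of which 5 remained positive, and 0.01 for the accessory subunits.

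NDUFA9 (ENSSSCG00000000719), an accessory subunit near the quinone site, stood at 67.8, 91.7 and 72.4 CPM in the deletion libraries, against 51.9, 60.9 and 47.1 CPM in the wild-type libraries. Its groups did not overlap, and its log2 fold change of 0.54 (SE 0.16; edgeR adjusted p = 0.117) was the largest of the nuclear members. NDUFS1 (ENSSSCG00000016127), the largest core subunit, which carries iron-sulfur clusters, stood at 56.7, 74.9 and 63.5 CPM in deletion animals and at 43.6, 53.1 and 45.5 CPM in wild-type animals. That gave a log2 fold change of 0.46 (SE 0.14; edgeR adjusted p = 0.131), again with no overlap. NDUFS3 (ENSSSCG00000032081), a core subunit of the arm that reaches into the matrix, stood at 83.0, 93.6 and 71.7 CPM in deletion animals, against 67.0, 62.2 and 47.1 CPM in wild-type animals, a log2 fold change of 0.49 (SE 0.17; edgeR adjusted p = 0.155).

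NDUFV1, the flavin-binding subunit, gave 104, 117 and 99.2 CPM in deletion animals, against 100, 93.7 and 63.4 CPM in wild-type animals. Its log2 fold change was 0.32 (SE 0.18) with all libraries and 0.08 without wild-type replicate 3. NDUFV2, the partner of NDUFV1, had a log2 fold change of 0.30 (SE 0.12) and NDUFS8, which holds iron-sulfur clusters, 0.15 (SE 0.18). NDUFS7, another nuclear core subunit, is not analysed here.

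At the other end of complex I, 3 accessory subunits had negative values. NDUFB7 stood at 53.2, 47.5 and 46.2 CPM in deletion animals, against 69.7, 49.5 and 40.8 CPM in wild-type animals. Its groups overlapped, and its log2 fold change was -0.12 (SE 0.19; edgeR adjusted p = 0.797). NDUFA11, a membrane-arm subunit, was at -0.01 (SE 0.19), and NDUFB1 at -0.001 (SE 0.19). NDUFB4 had the highest deposited level per length of the nuclear complex I members, with a mean of 324 TPM (reads weighted by transcript length and library total) over the 6 libraries, and a log2 fold change of 0.18 (SE 0.12).

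Complex II, succinate dehydrogenase, links the citrate cycle to the respiratory chain and is encoded by nuclear genes alone. Its 3 members differed little between the genotypes. SDHB, the iron-sulfur subunit, stood at 91.6, 93.8 and 89.1 CPM in deletion animals, against 97.4, 81.0 and 73.6 CPM in wild-type animals, with a log2 fold change of 0.12 (SE 0.13). SDHC and SDHD, the membrane anchors, gave 0.14 (SE 0.12) and 0.10 (SE 0.12), and all 3 overlapped between the groups. Without wild-type replicate 3 the values were -0.02 for SDHB, 0.16 for SDHC and -0.04 for SDHD. The catalytic flavoprotein SDHA (ENSSSCG00000020686) is not among the members, because the tables give its row no symbol and it was found through a gene name table. SDHA stood at 255, 304 and 233 CPM in deletion animals and at 206, 199 and 173 CPM in wild-type animals, with a log2 fold change of 0.46 (SE 0.15; edgeR adjusted p = 0.141). Without wild-type replicate 3 the SDHA value was 0.32 (edgeR adjusted p = 0.213).

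Complex III passes electrons from ubiquinol to cytochrome c. Its 6 nuclear members were all positive (5 of 6 under total-count scaling), with a median log2 fold change of 0.25 with all libraries and 0.05 without wild-type replicate 3. UQCRC2 (ENSSSCG00000007845), a core protein of the matrix side, stood at 84.1, 101 and 92.6 CPM in deletion animals, against 69.1, 75.6 and 72.9 CPM in wild-type animals. The values did not overlap and gave a log2 fold change of 0.35 (SE 0.11; edgeR adjusted p = 0.144), or 0.29 without wild-type replicate 3. UQCRFS1 (ENSSSCG00000027085), the Rieske iron-sulfur protein, was at 105, 128 and 113 CPM in deletion animals and at 82.8, 98.1 and 88.8 CPM in wild-type animals. These also did not overlap, with a log2 fold change of 0.36 (SE 0.13; edgeR adjusted p = 0.168). UQCRC1, the other core protein, gave 0.31 (SE 0.15) without overlap, and CYC1, cytochrome c1, gave 0.20 (SE 0.17) with overlap, or -0.02 without wild-type replicate 3. Small accessory subunits were closer to 0, UQCR10 at 0.14 (SE 0.21) and UQCRQ, the most abundant per length at a mean of 273 TPM, at 0.08 (SE 0.14).

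Complex IV, cytochrome c oxidase, reduces oxygen to water. Of its 11 tested nuclear members 10 were positive, with a median log2 fold change of 0.17, or -0.002 without wild-type replicate 3. COX5A (ENSSSCG00000024316), which lies on the matrix side, was the only complex IV member whose groups did not overlap. That is 9.09% of the 11 tested, where 15.2% of all tested genes lay above every wild-type library. COX5A stood at 121, 138 and 104 CPM in deletion animals, against 97.2, 96.4 and 64.1 CPM in wild-type animals, a log2 fold change of 0.49 (SE 0.19; edgeR adjusted p = 0.204), or 0.26 without wild-type replicate 3. NDUFA4, first assigned to complex I and later to complex IV, gave 0.27 (SE 0.14), and COX7A2L, a factor that joins complexes into supercomplexes, gave 0.22 (SE 0.12). COX8A had the highest level per length of the nuclear members, with a mean of 740 TPM, and a log2 fold change of 0.04 (SE 0.22) that was -0.19 without wild-type replicate 3.

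Complex IV exchanges some of its nuclear subunits for tissue forms, and 2 of these pairs were measured on both sides. COX7A1, the form of heart and skeletal muscle, was the most negative member, at 21.4, 20.0 and 17.7 CPM in deletion animals and at 29.0, 22.4 and 18.6 CPM in wild-type animals. Its log2 fold change was -0.24 (SE 0.18; edgeR adjusted p = 0.526), and the groups overlapped in level. Set against COX7A2, its widely expressed counterpart, in the same library, COX7A1 gave 28.7, 25.5 and 26.2 reads per 100 COX7A2 reads in deletion animals, against 36.4, 34.6 and 31.8 in wild-type animals. This ratio separated the groups, with means of 26.8 ± 1.67 and 34.3 ± 2.34 (SD, n = 3 each; exact two-sided permutation p = 0.1, 0.2 after adjustment over the 4 ratios compared). COX6A2, the muscle form of COX6A1, gave 3.16, 4.40 and 4.42 reads per 100 COX6A1 reads in deletion animals and 2.99, 4.45 and 3.93 in wild-type animals, so that pair overlapped (exact permutation p = 0.7).

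A further pair of ratios, chosen after their values were seen, concerns forms outside the name rule. COX4I2, a form of subunit IV expressed mostly in lung and known from oxygen-regulated expression, gave 0.525, 0.596 and 0.340 reads per 100 reads of the common form COX4I1 in deletion animals, against 1.16, 1.24 and 0.693 in wild-type animals. Group means were 0.487 ± 0.132 and 1.03 ± 0.297 (SD, n = 3 each; exact permutation p = 0.1, adjusted 0.2), and the level of COX4I2 had a log2 fold change of -1.14 (SE 0.43; edgeR adjusted p = 0.195). NDUFA4L2, a relative of NDUFA4 known as a target of hypoxia signalling, stood at 4.54, 4.17 and 5.72 reads per 100 NDUFA4 reads in deletion animals and at 10.3, 11.8 and 4.90 in wild-type animals, where wild-type replicate 3 fell among the deletion values (exact permutation p = 0.2, adjusted 0.267). The level of NDUFA4L2 did not pass with all libraries (log2 fold change -0.68, edgeR adjusted p = 0.393) and passed without wild-type replicate 3 (log2 fold change -1.10, SE 0.18, edgeR adjusted p = 0.0224). That fit leaves out the wild-type library that fell among the deletion values, and it called 4.31% of all genes lower. The pass is therefore no separate evidence. COX4I2 and NDUFA4L2 are also known from pericytes in other mammals. The 8 smooth muscle and mural markers, whose summed level was 212, 158 and 208 CPM in deletion animals against 1738, 3178 and 499 CPM in wild-type animals, moved in the same direction as these ratios, and their part in them was not tested.

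**Figure D2:**
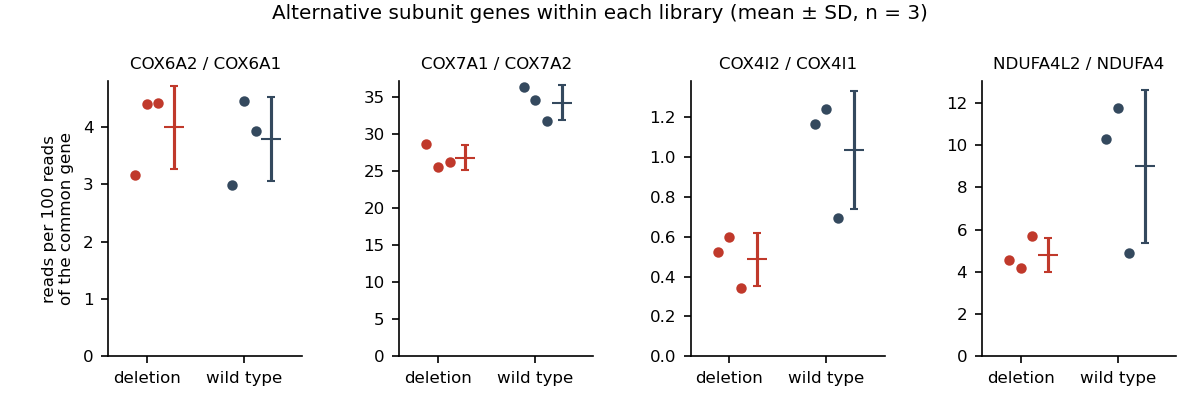
Reads of the alternative subunit form per 100 reads of the common form in each library, deletion on the left of each panel and wild type on the right; crosses with bars are the mean ± SD (n = 3). COX7A1 over COX7A2 runs from 25.5 to 28.7 in deletion animals and from 31.8 to 36.4 in wild-type animals, and COX6A2 over COX6A1 overlaps.

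Complex V had positive values for all 12 of its nuclear members (10 under total-count scaling), with a median log2 fold change of 0.20, or 0.05 with 8 of 12 positive without wild-type replicate 3. ATP5F1A (ENSSSCG00000004499), the alpha subunit of the catalytic head, had the highest level in CPM of the nuclear members, at 453, 528 and 443 CPM in deletion animals and 348, 383 and 310 CPM in wild-type animals. There was no overlap, and the log2 fold change was 0.45 (SE 0.15; edgeR adjusted p = 0.141), or 0.31 without wild-type replicate 3. ATP5F1C, the gamma subunit of the rotor, gave 0.32 (SE 0.13), ATP5PO, the stalk subunit that contacts the head, gave 0.31 (SE 0.12), and ATP5MC3, which encodes the ring subunit c, gave 0.34 (SE 0.14), each without overlap. ATP5MC1, another gene for the same ring protein, gave 0.17 (SE 0.17) with overlap. In complex V 4 of the 12 nuclear members (33.3%) lay above every wild-type library, where 15.2% of all tested genes did. Without wild-type replicate 3 these shares were 33.3% and 27.8%. ATP5IF1, the inhibitor that stops the enzyme from running backwards, stood at 107, 111 and 96.7 CPM in deletion animals, against 96.9, 81.1 and 73.1 CPM in wild-type animals, a log2 fold change of 0.33 (SE 0.14; edgeR adjusted p = 0.235). Its groups overlapped by the lowest deletion and the highest wild-type library alone. ATP5ME and ATP5PF, a membrane and a stalk subunit, were nearest to 0, at 0.03 (SE 0.15) and 0.04 (SE 0.12).

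Summed over the 62 nuclear members, levels were 5987, 6352 and 5629 CPM in deletion animals and 5785, 5182 and 4472 CPM in wild-type animals, and the groups overlapped by wild-type replicate 1. As a share of all exon reads the nuclear members took 0.562, 0.597 and 0.580% in deletion animals and 0.574, 0.561 and 0.458% in wild-type animals, with overlap. As a share of the deposited TPM, which weights each gene by length, they took 1.08, 1.08 and 1.07% in deletion animals and 1.03, 0.979 and 0.938% in wild-type animals. Only on that scale did the groups not overlap, and the mitochondrial mRNAs took a varying 19.2 to 33.2% of the same TPM total.

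**Figure D3:**
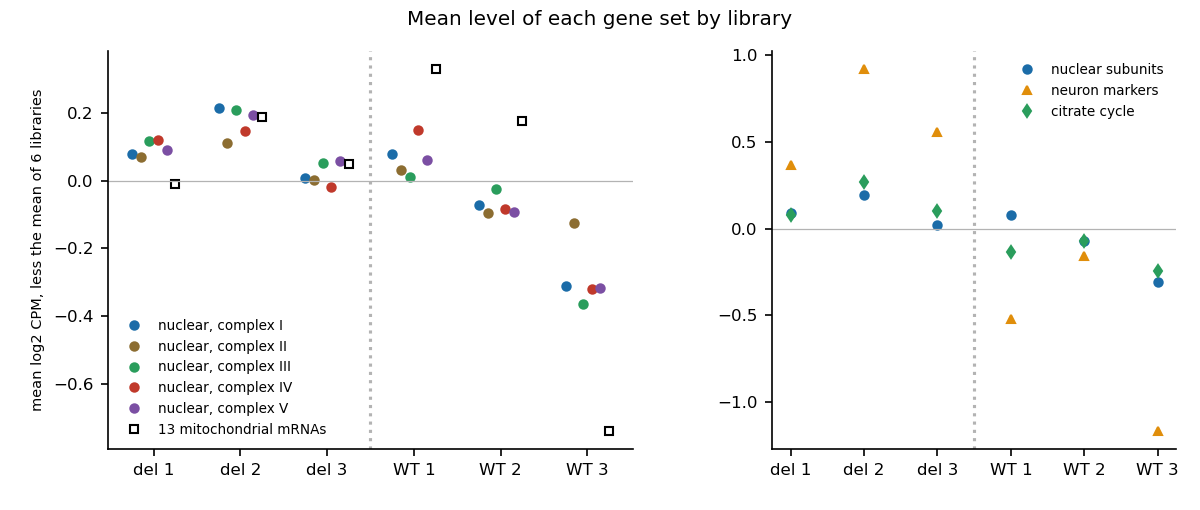
Mean log2 CPM of each gene set in each of the 6 libraries, less the mean over the libraries, with deletion libraries left of the dotted line. On the left the nuclear complexes and the mitochondrial mRNAs are lowest in wild-type replicate 3, and the mitochondrial mRNAs are highest in wild-type replicate 1; on the right neuron markers spread more widely than nuclear subunits or citrate cycle genes.

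The mitochondrial mRNAs overlapped between the genotypes throughout. The 13 mRNAs took 9.01, 10.4 and 10.2% of exon reads in deletion animals, against 12.4, 12.1 and 5.88% in wild-type animals, with means of 9.86 ± 0.739% and 10.1 ± 3.70% (SD, n = 3 each). Deletion animals thus lay close together and between the wild-type extremes. Log2 fold changes ran from -0.03 for COX3 to 0.37 for ND5 with a median of 0.04, 12 of 13 were positive, all 13 overlapped between the groups, none had an unadjusted p under 0.05, and the smallest edgeR adjusted p was 0.512. The direction of the median was not stable to scaling: it was -0.004 under relative log expression scaling, -0.04 under upper-quartile scaling, -0.05 under total-count scaling and -0.09 with voom. The median of all genes, 0.05 in the fit used here, was 0.01, -0.03 and -0.04 under those 3 scalings and 0.07 with voom.

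Wild-type replicate 3 was the lowest library for each of the 13 mRNAs, and wild-type replicate 1 was the highest for 11 of them. Without replicate 3, 12 of the 13 fold changes were negative and the median was -0.29. In that comparison 4 of the 13 lay below both remaining wild-type libraries, which 18.4% of all tested genes did, and none passed the threshold. Between the prefix 14 animals 1 of the 13 was higher in the deletion animal, with a median fold of 0.748, and between the prefix 15 animals, which include replicate 3, all 13 were higher, with a median fold of 1.25.

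Complex IV and complex V mRNAs led in level per length. COX1, the catalytic subunit that holds the oxygen site, had a mean of 57405 TPM over the 6 libraries, ATP6, the proton channel of the ATP synthase, 56626 TPM, and COX3, a core subunit of complex IV, 54204 TPM. COX2, which takes electrons from cytochrome c, followed at 29273 TPM, ND4 and CYTB, the cytochrome b of complex III, at 18379 and 17734 TPM, and ND3 and ND2 at 13674 and 13414 TPM. ND4L at 9387, ND5 at 7956 and ND1 at 5774 TPM were the lower complex I mRNAs, ahead of ND6 at 328 TPM and ATP8 at 290 TPM. ND6 is read from the opposite strand, and in people its mRNA lacks the poly(A) tail that the mRNA library kit selects. ATP8 overlaps ATP6 and ND4L overlaps ND4 on shared transcripts in mammals, and how the counting divided such reads is not stated, so these values are uncertain. There were 0.133 to 0.174 ATP8 reads per 100 ATP6 reads. For comparison, nuclear members ran from 0.526 TPM for COX6B2 to 740 TPM for COX8A.

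COX1 stood at 30778, 35615 and 31094 CPM in deletion animals and at 41391, 35492 and 17854 CPM in wild-type animals, and the spread between wild-type animals far exceeded the difference of the means, 32496 ± 2706 and 31579 ± 12247 CPM (SD, n = 3 each). CYTB was at 7045, 7726 and 7403 CPM in deletion animals, against 9424, 8131 and 4054 CPM in wild-type animals, and ATP6 at 12625, 15839 and 13416 CPM in deletion animals, against 18143, 15590 and 7950 CPM in wild-type animals. The same order of the wild-type libraries held for both.

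ND5, a membrane-arm proton pump subunit of complex I, departed from most of the rest in wild-type replicate 1. Its level was 6010, 5652 and 5884 CPM in deletion animals, against 4422, 6126 and 3067 CPM in wild-type animals, so that it was not highest in that library. ND6 was not highest there either, at 70.2 CPM against 74.9 CPM in deletion replicate 2. As a share of all mitochondrial mRNA reads, which does not depend on the scaling between libraries, ND5 took 6.26, 5.11 and 5.96% in deletion animals and 3.53, 5.48 and 5.35% in wild-type animals, with wild-type replicate 1 below the other 5 libraries. The share of COX3 was 15.1, 15.0 and 14.5% in deletion animals, against 15.7, 15.7 and 16.0% in wild-type animals, and COX3 was the one mRNA of the 13 whose shares did not overlap between the groups. COX1 took 32.0, 32.2 and 31.5% in deletion animals and 33.0, 31.7 and 31.1% in wild-type animals.

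**Figure D4:**
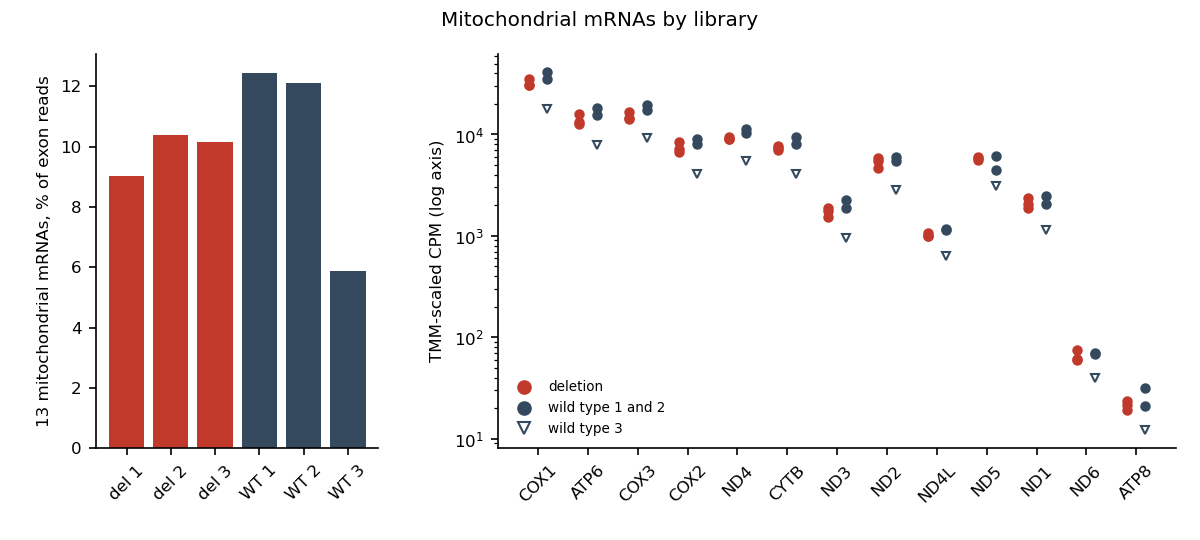
Left, share of exon reads on the 13 mitochondrial mRNAs in each library; right, TMM-scaled CPM of each mRNA on a log axis, in order of level per length, deletion left and wild type right. Wild-type replicate 3, the open triangle, is lowest for every mRNA, and the deletion libraries lie close together.

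The balance of the genomes followed the mitochondrial side. There were 16.0, 17.4 and 17.5 mitochondrial mRNA reads for each nuclear subunit read in deletion animals, and 21.7, 21.6 and 12.8 in wild-type animals. On the log2 scale these ratios were 4.00, 4.12 and 4.13 in deletion animals and 4.44, 4.43 and 3.68 in wild-type animals, with means of 4.09 ± 0.07 and 4.18 ± 0.44 (SD, n = 3 each). The difference of means, -0.10, was smaller than the spread between wild-type animals, and without wild-type replicate 3 it was -0.35.

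Genes that serve the complexes, but are not members, were read from lists chosen with earlier results of these data known. None of them passed the threshold with all 6 libraries. Assembly factors, which build the complexes, were positive for 30 of 39 with a median log2 fold change of 0.14. Of the 39, 10 (25.6%) lay above every wild-type library and 1 (2.56%) below, where 15.2% and 11.2% of all tested genes did. Without wild-type replicate 3 the median was 0.08. TMEM186, a complex I assembly factor, had the smallest p among them, at 0.70 (SE 0.18; edgeR adjusted p = 0.0929), COX10, a heme synthesis enzyme of complex IV assembly, was at 0.74 (SE 0.22), and SDHAF2, which helps to attach the flavin of SDHA, at 0.40 (SE 0.13). Subunits outside the name rule and electron carriers were positive for 12 of 18 with a median of 0.16, or 0.09 without wild-type replicate 3. Among these, COX4I1, the common form of complex IV subunit IV, was at -0.02 (SE 0.18) and cytochrome c, CYCS, at 0.25 (SE 0.13).

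Genes of mitochondrial transcription and RNA stability were positive for 16 of 21, with a median of 0.14, or 0.05 with 13 positive without wild-type replicate 3. Above every wild-type library lay 3 of the 21 (14.3%) and below it 2 (9.52%), near the 15.2% and 11.2% of all tested genes. The gene with the smallest p in the list was LRPPRC, which does not stand for the list. LRPPRC, which stabilises mitochondrial mRNAs in mammals, stood at 75.7, 90.6 and 84.0 CPM in deletion animals, against 53.3, 58.8 and 65.6 CPM in wild-type animals. The groups did not overlap and wild-type replicate 3 was the highest wild-type library; the log2 fold change was 0.49 (SE 0.13; edgeR adjusted p = 0.0953), or 0.51 without that library. Nuclear regulators of respiratory genes, by contrast with the other lists, were negative for 7 of 11, with a median of -0.04, or -0.13 without wild-type replicate 3. Of the 11, 3 (27.3%) lay below every wild-type library and 2 (18.2%) above, where 11.2% and 15.2% of all tested genes did. ESRRG, a nuclear receptor of oxidative metabolism, stood at 4.29, 7.18 and 3.54 CPM in deletion animals and at 0.704, 2.52 and 1.15 CPM in wild-type animals, a log2 fold change of 1.76 (SE 0.49; edgeR adjusted p = 0.110). The coactivator PPARGC1A was at 0.34 (SE 0.17) and ESRRA, a receptor it works with, at 0.38 (SE 0.17). ESRRG, ESRRA and PPARGC1A are named for the smallest p in the list and are among its 4 positive genes, so they do not stand for the list.

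Pathways that feed the chain had higher medians than the subunits themselves, though the difference between lists was not tested. Citrate cycle and pyruvate dehydrogenase genes were positive for 17 of 19 with a median log2 fold change of 0.33. Of the 19, 13 (68.4%) lay above every wild-type library and 1 (5.26%) below, where 15.2% and 11.2% of all tested genes did. DLAT, a core of the pyruvate dehydrogenase complex, stood at 58.5, 75.6 and 61.6 CPM in deletion animals and at 40.2, 48.6 and 41.7 CPM in wild-type animals, a log2 fold change of 0.58 (SE 0.14; edgeR adjusted p = 0.0865). SUCLA2 and MDH2, 2 enzymes of the cycle, were at 0.57 (SE 0.15) and 0.55 (SE 0.15). Glycolysis and lactate dehydrogenase genes were positive for 14 of 17 with a median of 0.42. Of the 17, 13 (76.5%) lay above every wild-type library and 0 below, against the same shares of all tested genes. The phosphofructokinase PFKP stood at 207, 309 and 203 CPM in deletion animals, against 127, 142 and 105 CPM in wild-type animals, a log2 fold change of 0.95 (SE 0.20; edgeR adjusted p = 0.0734), with the muscle-type enzyme PFKM at 0.62 (SE 0.13) and PGAM1 at 0.54 (SE 0.14).

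Carriers, porins and import genes were positive for 22 of 25 with a median of 0.26. Of the 25, 13 (52.0%) lay above every wild-type library and 0 below, where 15.2% and 11.2% of all tested genes did. SLC25A11, the oxoglutarate carrier of the malate-aspartate shuttle, stood at 24.4, 29.1 and 25.9 CPM in deletion animals and at 13.9, 14.9 and 18.3 CPM in wild-type animals. Its log2 fold change was 0.75 (SE 0.15; edgeR adjusted p = 0.0596), and it passed without wild-type replicate 3, at 0.82 (edgeR adjusted p = 0.0201). The fit without that library called 0.809% of all genes higher. SLC25A12, the aspartate-glutamate carrier of the same shuttle, was at 0.81 (SE 0.18; edgeR adjusted p = 0.0785), and OPA1, which fuses inner membranes, at 0.54 (SE 0.14). Without wild-type replicate 3 the medians of the 3 lists of fuel genes and carriers were 0.18 for the citrate cycle, 0.26 for glycolysis and 0.21 for carriers, where that of the nuclear subunits was 0.03.

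**Figure D5:**
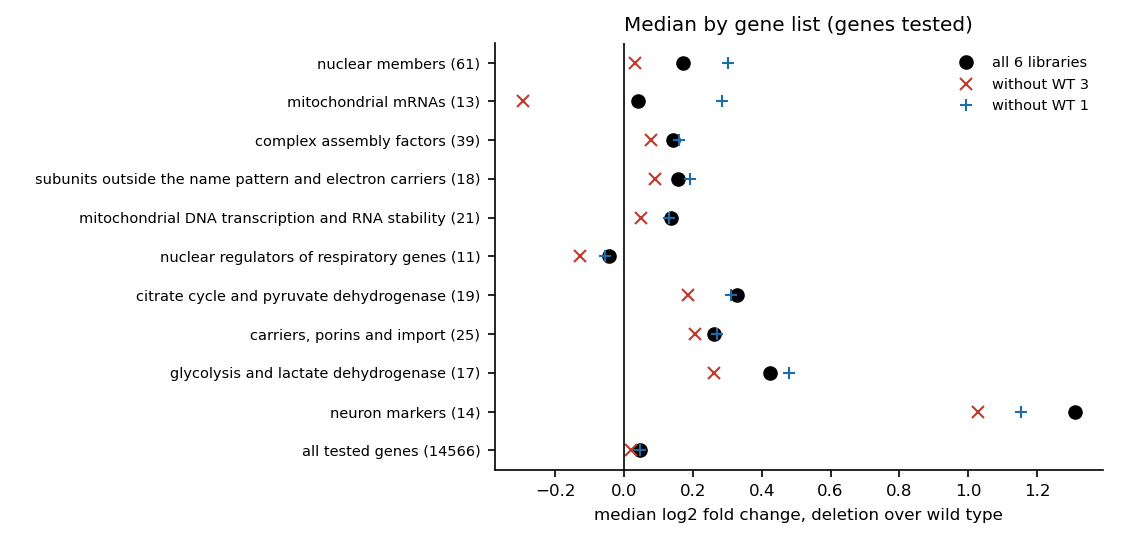
Median log2 fold change of deletion over wild type for each gene list, with the number of genes tested, from all 6 libraries and without wild-type replicate 3 or 1. The nuclear subunits move between 0.03 and 0.30 and the mitochondrial mRNAs between -0.29 and 0.28, while the citrate cycle, carrier and glycolysis lists stay between 0.18 and 0.48.

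Markers of cell types moved with genotype beside these values. All 14 tested neuron markers were positive with a median log2 fold change of 1.31. Of the 14, 12 (85.7%) lay above every wild-type library, where 15.2% of all tested genes did. None of the neuron markers passed the threshold, though GAP43 did without wild-type replicate 3 (log2 fold change 0.98, edgeR adjusted p = 0.0266). The fit without that library called 0.809% of all genes higher. The summed level of the neuron markers was 10629, 18754 and 9021 CPM in deletion animals, against 4686, 6351 and 2372 CPM in wild-type animals. None was at 0 in any library, and wild-type replicate 3 was the lowest. Motor neuron markers were positive for 7 of 7 with a median of 2.71, and 1 of them was at 0 in a library. All 8 smooth muscle and mural markers were negative, with 4 past the threshold, and 8 of 9 meningeal and fibroblast markers were negative, with 6 past it. The summed level of the meningeal and fibroblast markers was 654, 354 and 504 CPM in deletion animals and 3035, 2821 and 2397 CPM in wild-type animals. Of 7 Schwann cell markers 6 were negative and 1 passed. Of all tested genes, 0.844% passed the threshold as lower in that fit. With the ID prefix as a block, 0 mural, 2 meningeal and 0 Schwann markers passed, under total-count scaling 0, 6 and 0, without wild-type replicate 1 none, and without wild-type replicate 3 the counts were 8, 6 and 4. In those 4 fits 3, 100, 0 and 759 of all genes passed, and the last called 4.31% of all genes lower. Oligodendrocyte markers, which take the most reads of these lists, were positive for 9 of 11 with a median of 0.19, or 11 of 11 with a median of 0.42 without wild-type replicate 3, and their summed level overlapped between the groups. Astrocyte markers were positive for 6 of 9 and microglia markers for 2 of 8, with medians of 0.07 and -0.10 and none past the threshold, and the astrocyte median was -0.01 under total-count scaling and 0.19 without wild-type replicate 3. Of the skeletal muscle markers 5 of 10 were tested, 2 positive and 3 negative, with a median of -0.32 that was 0.28 without wild-type replicate 1. Over the 6 of them found by name, tested or not, the summed level averaged 199 CPM in deletion animals and 151 CPM in wild-type animals without overlap. Most of that sum was CKM, at means of 192 and 141 CPM (log2 fold change 0.44, SE 0.17). ACTA1 and MYH7, at low levels, had log2 fold changes of -0.97 and -0.39. Rostral HOX genes were positive for 3 of 8, and for 0 of 8 without wild-type replicate 3. In bulk tissue, fewer cells of a type and less RNA per cell cannot be told apart, and the part of these markers in the values of the subunits was not tested.

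In the authors' deposited table of the same comparison, no member had a false discovery rate under 0.05, a level that 3.39% of the genes with a value reached upwards and 3.81% downwards. Positive fold changes in the authors' deposited table were given to 59 of the 62 nuclear members and 12 of the 13 mitochondrial mRNAs, and the smallest false discovery rate of a member was that of NDUFA9, 0.0610 at a 1.46-fold higher level. For the mitochondrial mRNAs in the authors' deposited table the smallest was 0.566.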

How the data were processed

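Poly(A) RNA was sequenced from cervical spinal cord of 6 pigs, 3 per genotype, with a stranded mRNA kit and paired ends, per the labels' protocols. For the aligner, the counting program, its use of strand, the annotation and the build, the source is silent (not given in the sources used here). Reads of antisense partners therefore cannot be told apart, and no coordinates are printed. Per the file headers, the authors deposited a whole-number count of exon reads per Ensembl gene, with a blank for 0, and a TPM value. The TPM value is used here to compare levels per length and for the summed share of the nuclear members. For each gene of the comparison, the authors' deposited table holds a score, which is a signed fold change, beside its p-value and false discovery rate. The method behind them is not stated.

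From the counts, genes were kept by filterByExpr with genotype as the group, scaled by TMM and tested with the edgeR 4.0.16 quasi-likelihood test with robust settings in R 4.3.3, with Benjamini-Hochberg adjustment over 14566 genes and a threshold of 0.05. Levels are TMM-scaled CPM, and standard errors come from the quasi-likelihood statistic. Totals were 17181003 to 22492366 reads. The floor of 3 reads covers counting error only. The test was tested on simulated data with 200 changed genes. The changes planted there were larger than that of any member, and no simulated library was made to stand apart. It therefore does not bear on changes of the members' size.

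Members were found by name, so subunits without a symbol in the tables were left out: NDUFB5, UQCR11, NDUFA7 and SDHA were read through a gene name table, COX4I1 and NDUFAB1 carry names outside the pattern, and NDUFS7, ATP5F1B, COX6C, UQCRB, ATP5MC2 and COX6B1 are not analysed here. The members and the gene lists were chosen with earlier results of these data known. Genes named are the mitochondrial mRNAs, in each complex the 3 members with the smallest p, the negative ones and the most abundant, the catalytic and core subunits, isoform sets, up to 3 genes by p from each other list, and UBE3A; others were chosen after their values were seen. Sequences are not used here, and 1 member is counted in the totals but not reported by name or drawn. Alternatives were other scalings and filters, DESeq2 1.42.0, voom with quality weights in limma 3.58.1, the ID prefix as a block, prefix 15 alone, TMM without the mitochondrial mRNAs, and leaving out each library; 1 comparison without wild-type replicate 3 was added after the data were seen. Replicate numbers follow accession order and pair no animals.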

Additional observations from a re-analysis of the deposited data

How the results depend on the processing

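No nuclear member and no mitochondrial mRNA passed the threshold under any of the 15 alternatives run, DESeq2 (smallest nuclear adjusted p = 0.0530) and voom (0.103) included. The mitochondrial mRNAs were not in the fit with TMM computed without them. The number of all genes past the threshold, 149, was 22 with TMM computed without the mitochondrial mRNAs, 237 with no filter, 1358 with DESeq2, 438 with voom, 3 with the ID prefix as a block and 0 with prefix 15 alone. Leaving out 1 library gave 0 to 759. The cause of these changes was not tested. The nuclear median log2 fold change was 0.08 under total-count scaling, with 48 of 61 positive, where 43.0% of all tested genes were positive. It stayed positive in every alternative, from 0.03 without wild-type replicate 3 to 0.30 without wild-type replicate 1. The mitochondrial median ran from -0.29 to 0.28 over the same 2 libraries. Without wild-type replicate 3, 21 of the 47 named members changed sign, against 11 under total-count scaling and 9 with voom. The mitochondrial share, deletion minus wild type, was -0.288 percentage points, ran from -2.42 without wild-type replicate 3 to 0.863 without wild-type replicate 1 when 1 library was left out, and was 1.29 within prefix 15. No paired analysis was possible because the labels carry no replicate numbers. At this depth COX6B2, at 0 to 3 reads a library, could not be compared.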

Other observations

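LDHB, the lactate dehydrogenase subunit common in aerobic tissues and one of the 17 glycolysis genes listed, was chosen after its values were seen. Deletion replicates 1 to 3 had 16, 613 and 656 reads of it, against 11, 17 and 468 reads in the wild-type replicates. In level these are 0.798, 32.1 and 28.3 CPM in deletion animals and 0.645, 0.737 and 21.5 CPM in wild-type animals, so libraries with few and with many reads occur in both genotypes. Its fold change did not pass the edgeR test (log2 value 1.41, SE 1.48, adjusted p = 0.683). The other form, LDHA, stood at 15.2, 18.4 and 21.3 CPM in deletion animals and at 27.8, 23.0 and 18.9 CPM in wild-type animals, with a log2 fold change of -0.34 (SE 0.19; edgeR adjusted p = 0.364).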
